A study of Mus musculus with 6 samples.

Results

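The miRNAs described here are those of the leukocyte genes Mir142, Mir223, Mir150 and Mir342. They were taken by name as the 6 mouse probe sets mmu-miR-142-3p_st, mmu-miR-142-5p_st, mmu-miR-223_st, mmu-miR-150_st, mmu-miR-342-3p_st and mmu-miR-342-5p_st, without star strands, out of 609 mouse and 7625 probe sets in all. The rule used names, not values. The tissue was the left upper lung lobe of 2 CC10-rtTA-IL13 transgenic mice (TG) and 4 wildtype mice (WT), each on 1 array. All 6 were C57BL/6 mice aged 6 to 10 weeks whose drinking water held doxycycline at 2 mg/mL for 7 days. In TG the CC10 promoter, active in airway club cells, drives a doxycycline-dependent transactivator that switches on interleukin 13, a cytokine of type 2 inflammation. No group carried the transactivator without interleukin 13, so the contributions of these elements cannot be told apart. The comparison asks whether leukocyte miRNAs differ between lungs with induced interleukin 13 and wildtype lungs.

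A mature miRNA guides Argonaute proteins to messenger RNAs that pair with its seed, the bases near its 5′ end. miR-142 is made in nearly all blood cell lineages and hardly elsewhere, and both of its arms are used. miR-223 marks myeloid cells, above all neutrophils, and restrains their production and activation. miR-150 is abundant in mature B, T and natural killer cells and targets Myb, a transcription factor of lymphocyte development. miR-342 lies in an intron of Evl, a regulator of the actin cytoskeleton, and is expressed in lymphoid and myeloid cells. In bulk lung, fewer cells of a type and less RNA per cell cannot be told apart.

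The mature sequences of 5 of the 6 members were found in a RefSeq table of build GRCm38.p6. They are shown 5′ to 3′ because the members differ in the messages they can pair with, with the seed (bases 2 to 8) in capitals.
miR-342-3p: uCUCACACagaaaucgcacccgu
miR-342-5p: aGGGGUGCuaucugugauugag
miR-223: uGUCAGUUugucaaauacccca
miR-142-3p: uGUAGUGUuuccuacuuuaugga
miR-142-5p: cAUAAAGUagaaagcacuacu
The 5 seeds were all different, and 0 other mature miRNAs in the table carried any of them. The miR-342-3p sequence lies at chr12:108658680-108658702 and that of miR-342-5p at chr12:108658638-108658659, both on the plus strand inside the protein-coding gene Evl. The miR-223 sequence lies at chrX:96242884-96242905 on the plus strand, within the long noncoding RNA gene F630028O10Rik. The miR-142-3p and miR-142-5p sequences lie at chr11:87756903-87756925 and chr11:87756867-87756887 on the plus strand. The annotation also places the miRNA gene Mir142b over these positions. Overlapping genes were found by position, and their strands were not compared. The unarmed array name miR-223 was matched to the 3p arm, the one usually meant by it.

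Signals are given on the log2 scale. A probe set was called detected on an array when its signal exceeded 95 percent of the plant probe sets there, a limit of 4.22 and 4.25 in TG and 4.27 to 4.33 in WT. By this limit 201 and 199 mouse probe sets were detected in TG, against 149, 172, 146 and 132 on WT replicates 1 to 4. A probe set was tested when detected on at least 2 arrays, which held for 197. Among tested miRNAs with at least 3 detected probe sets of the same name from other mammals (104 names), the median SD between same-name probe sets was 0.21 and 0.22 in TG. In WT it was 0.31, 0.24, 0.22 and 0.28 for replicates 1 to 4, so WT replicates 1 and 4 were the least even. Lung markers were present: the endothelial miRNA miR-126-3p and the epithelial miRNA miR-200c were detected on all 6 arrays. With 2 and 4 arrays, precision is limited throughout.

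**Figure D1:**
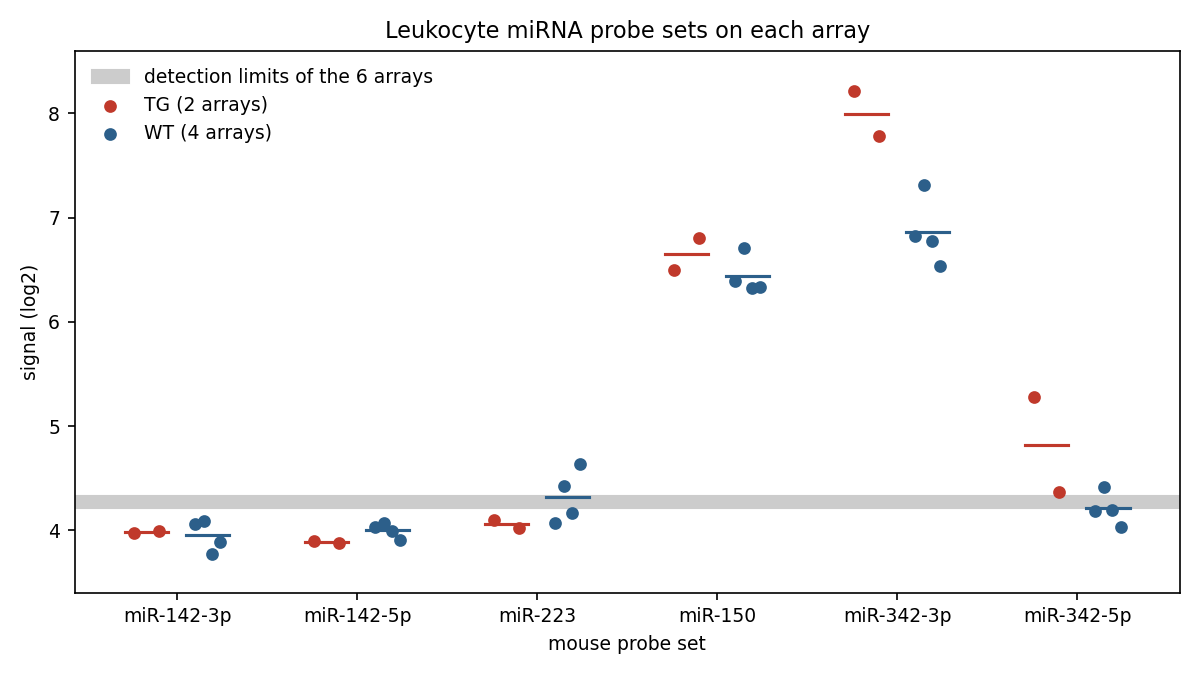
Log2 signal of the 6 mouse probe sets on each array, with TG (2 arrays) left of WT (4 arrays), a bar at each group mean and a grey band over the detection limits of 4.22 to 4.33. Both miR-142 probe sets lie below the band on all arrays, miR-150 has overlapping groups, and both TG values of miR-342-3p lie above all WT values.

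miR-342-3p had the largest difference of the 4 tested members and was higher on both TG arrays than on any WT array. miR-150 was well detected everywhere with overlapping groups. miR-342-5p and miR-223 lay near the detection limit, and miR-142 was not detected at all. In limma with Benjamini-Hochberg adjustment over the 197 tested probe sets, 0 of the 4 tested members passed an adjusted p of 0.05. Of all tested probe sets 6 passed (3.05%), and all 6 were higher in TG (3.05% higher and 0% lower). At an unadjusted p under 0.05 there were 39 (19.8%), 34 higher and 5 lower, with miR-342-3p the only member among them. The lean to higher values depended on the scaling. Quantile normalization kept it, with 28 higher and 5 lower, while centring the arrays on the median of their tested probe sets gave 17 higher and 18 lower. The number of detected mouse probe sets as a covariate gave 9 higher and 19 lower, but that number was itself higher on both TG arrays than in WT. The 6 calls fell to 0 without either TG array, WT replicate 1 or WT replicate 3, and grew to 27 without WT replicate 2.

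The mouse probe set of miR-342-3p read 8.21 and 7.78 in TG, against 6.83, 7.31, 6.77 and 6.53 in WT replicates 1 to 4. The groups did not overlap, and the nearest values were TG replicate 2 and WT replicate 2. Means were 7.997 ± 0.30 (SD, n = 2) in TG and 6.86 ± 0.33 (SD, n = 4) in WT. The difference (TG minus WT) was 1.14 ± 0.29 (SE), or 2.20-fold with a 95% interval of 1.39 to 3.47, at an adjusted p of 0.0812 by limma. It ranked 10 of 197 by p. By exact two-sided permutation p was 0.0667, which is as low as 15 splits allow, so 0.05 was out of reach. Such a separation, with TG above WT on every array, was found for 58 of the 197 tested probe sets (29.4%).

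The same-name probe sets of human, rhesus macaque and rat gave larger differences for miR-342-3p, at 1.82, 1.44 and 1.30. TG and WT were separate in all 3. In TG the mouse and the 3 other probe sets lay close together, between 8.13 and 8.26 in replicate 1 and between 7.77 and 7.87 in replicate 2. WT replicate 3 was also tight, from 6.77 to 6.82, and WT replicate 2 was wider, from 7.01 to 7.31. WT replicates 1 and 4 were wider still, with ranges of 5.19 to 6.83 and 5.48 to 6.53. The human probe set read 5.19 on WT replicate 1 and the macaque one 5.48 on WT replicate 4. The larger differences outside mouse thus came with low readings on the uneven WT arrays. Cow and dog probe sets named miR-342 without an arm differed by 1.14 and 1.53, also with separate groups. These probe sets read the same RNA and are not further replicates.

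Against only WT replicates 2 and 3, the mouse difference was 0.95 with an adjusted p of 0.149. Without WT replicate 2, the WT array nearest to TG, it was 1.29 with an adjusted p of 0.0177, which passed. The median difference over all tested probe sets was 0.21, so miR-342-3p stood 0.92 above it. Centring the arrays on their tested medians moved all differences down by 0.44 and left 0.70 for miR-342-3p, at an adjusted p of 0.263. The order of the arrays by miR-342-3p was the order by the number of mouse probe sets detected, from TG replicate 1 to WT replicate 4. With that number as a covariate the difference was 0.12 ± 0.50 (SE), adjusted p = 0.985 by limma. The number is counted from the same signals and was higher on both TG arrays (201 and 199) than on any WT array (132 to 172). This fit thus cannot tell the number apart from genotype, and nothing is concluded from it.

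**Figure D2:**
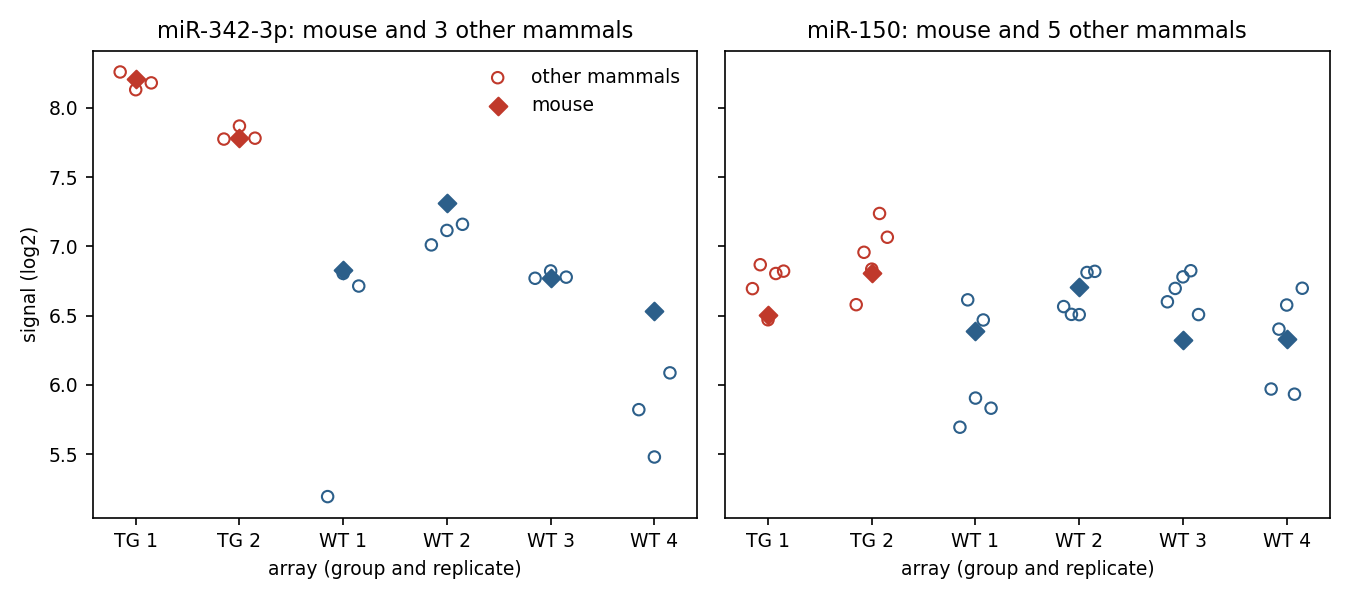
Log2 signal of the mouse probe set (diamonds) and of same-name probe sets of other mammals (circles) on each array, TG arrays in red and WT arrays in blue, for miR-342-3p (left) and miR-150 (right). For miR-342-3p the probe sets lie within 0.13 of each other on the TG arrays and spread over 1.63 on WT replicate 1 and 1.05 on WT replicate 4.

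miR-342-5p, from the other arm of the same hairpin, read 5.28 and 4.36 in TG, against 4.19, 4.42, 4.20 and 4.04 in WT. It was detected on both TG arrays and on WT replicate 2, and thus met the detection filter only through TG. WT replicate 2 exceeded TG replicate 2, so the groups overlapped. The difference was 0.61 ± 0.30 (SE) with an adjusted p of 0.296 by limma, or 1.53-fold as measured. With values under an array's detection limit set to that limit it was 1.40-fold. The value rested on TG replicate 1, without which the difference was 0.15, against 1.07 without TG replicate 2. Human, macaque and rat probe sets of this name differed by 0.36, 0.17 and 0.33. Only the human one was detected on 2 arrays, both TG.

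miR-150 was detected on all 6 arrays and read 6.50 and 6.81 in TG, against 6.39, 6.71, 6.32 and 6.33 in WT. WT replicate 2 lay between both TG arrays, and the other WT arrays lay below them. Means were 6.65 ± 0.22 (SD, n = 2) in TG and 6.44 ± 0.18 (SD, n = 4) in WT. The difference of 0.22 ± 0.24 (SE) was close to the median of all tested probe sets, 0.21, and its 95% interval of -0.33 to 0.76 spans a fold of 0.795 to 1.70. The adjusted p was 0.684 by limma, and the exact permutation p was 0.333. Centring, which lowers all differences alike, left -0.22. The 5 same-name probe sets, from cow, dog, human, macaque and rat, differed by 0.21 to 0.51 in the direction of higher TG values. In 2 of the 5, dog and rat, TG lay above all WT, beside 29.4% of all tested mouse probe sets. For rat this was by a hair, as TG replicate 1 and WT replicate 2 both read 6.82.

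miR-223 was at background on most arrays. It read 4.10 and 4.02 in TG, both under their limits, against 4.07, 4.42, 4.16 and 4.64 in WT. Only WT replicates 2 and 4 exceeded their limits, by 0.15 and 0.31, so it was tested only through its detection in WT. The measured difference was -0.27 ± 0.25 (SE), adjusted p = 0.626 by limma. It includes TG and WT values at background, the groups overlapped, and its 95% interval of -0.84 to 0.31 includes 0. Of the 9 same-name probe sets of other mammals, 3 were detected on 2 or more arrays, and 2 of these 3 had positive differences, over a range of -0.12 to 0.17. The signs thus differed between probe sets of the same name.

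miR-142 gave no signal above background. The miR-142-3p probe set read 3.97 and 3.99 in TG, against 4.06, 4.09, 3.77 and 3.89 in WT. The miR-142-5p probe set read 3.90 and 3.87 in TG, against 4.03, 4.07, 3.99 and 3.90 in WT. All 12 values lay under the detection limit of their array. Neither was tested, and the small differences between groups are differences in background. Being undetected was common, as 335 of the 609 mouse probe sets (55%) were detected on 0 arrays. Across all species on the array, 22 probe sets carried the miR-142 name without a star. Of these, 18 were detected on 0 arrays and 4 on 1 array, and the highest single value was 4.36. The array thus gave only an upper bound on miR-142 signal in both groups, and a difference between them was not detectable. Whether these probe sets respond to miR-142 was not tested, so its amount is not bounded.

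The log2 difference between members was taken on each array and compared between the groups, for the 6 pairs of tested members. It removes only a shift that is equal for both probe sets. The array medians hardly differed, at 4.02 to 4.03, but they lie under the detection limits and so describe background. At the bright end the arrays did differ. The highest signal was 11.50 on WT replicate 1 and 11.42 on WT replicate 4, against 13.13 to 13.36 on the other arrays. A difference between arrays that grows with signal is not removed, and its part in these values was not tested. A log2 difference between members shows unequal change between probe sets, not which of them changed. miR-342-3p minus miR-150 was 1.71 and 0.98 in TG, against 0.44, 0.61, 0.45 and 0.20 in WT. The change of 0.92 kept the groups apart, as did that of 1.40 for miR-342-3p minus miR-223. By miR-342-3p minus miR-150 the arrays ranked as by number of detected mouse probe sets, except that WT replicates 1 and 3 changed places. For miR-342-3p minus miR-342-5p the values were 2.93 and 3.42 in TG, against 2.64, 2.90, 2.57 and 2.50 in WT, a change of 0.52, with the nearest values at TG replicate 1 and WT replicate 2. The groups were also separate for miR-342-5p minus miR-223 (0.88) and miR-150 minus miR-223 (0.48), and overlapped for miR-342-5p minus miR-150 (0.40). Exact two-sided permutation gave p = 0.0667 for 4 pairs, 0.1 after adjustment over the 6. For miR-150 minus miR-223 it gave 0.133 (adjusted 0.16) and for miR-342-5p minus miR-150 0.467 (adjusted 0.467). No pair could pass, since 0.0667 is the smallest p of this design. Every pair with miR-223 or miR-342-5p includes values at background.

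**Figure D3:**
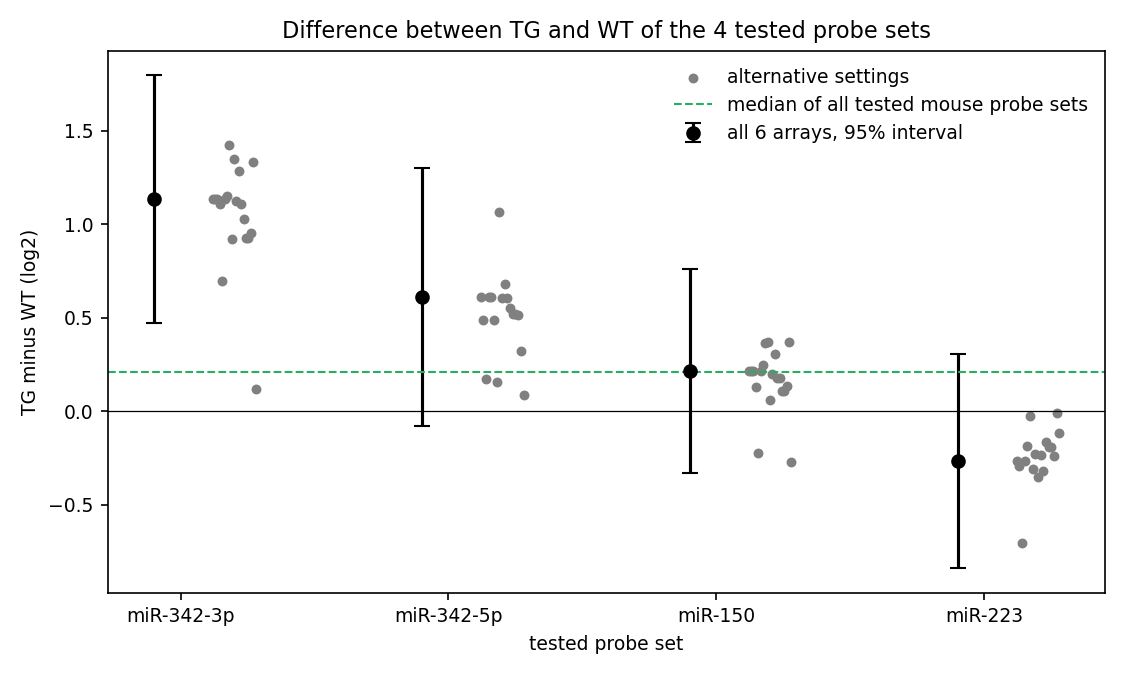
Difference between TG and WT (log2) of the 4 tested members, with points for all 6 arrays, bars for the 95% interval, grey points for the alternative settings and a dashed line at the median of all tested mouse probe sets, 0.21. The interval of miR-342-3p lies above 0, those of the other 3 members include 0, and the lowest grey point of miR-342-3p is the fit with the number of detected probe sets as a covariate, 0.12.

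The tested mouse probe sets whose profile over the 6 arrays was most like that of miR-342-3p were miR-652, miR-191 and miR-501-3p. Likeness was the root mean square difference of log2 values after each probe set's own mean was subtracted, 0.14 for miR-652, 0.21 for miR-191 and 0.21 for miR-501-3p, against a median of 0.55 over all tested probe sets. miR-652 read 8.96 and 8.70 in TG, against 7.55, 8.31, 7.89 and 7.33 in WT, so WT replicate 2 was again the WT array nearest to TG. Nearest to miR-342-5p were miR-324-3p, miR-449a and miR-182 (0.17, 0.17 and 0.19, median 0.46). Nearest to miR-150 were miR-122, miR-378* and miR-18a (0.070, 0.090 and 0.11, median 0.37), and to miR-223 miR-181a-1*, let-7g and miR-467d* (0.13, 0.13 and 0.15, median 0.44). Some of these lay near background, such as miR-122 at 4.21 and 4.57 in TG and 3.90 to 4.35 in WT. The measure is not scaled to each probe set's spread, so flat profiles come out close.

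Of 29 other miRNAs with known roles in blood and immune cells, 26 were tested. In TG, 1 of the 26 was higher past the threshold and 0 were lower by limma, beside 3.05% and 0% of all tested probe sets. At an unadjusted p under 0.05, 6 were higher and 0 lower, beside 34 and 5 of all 197. There were 14 positive and 12 negative differences with a median of 0.12, against 0.21 over all tested probe sets. The one past the threshold was miR-146b, induced by inflammatory signals, at 1.51 ± 0.29 (SE) with an adjusted p of 0.0428 by limma. It read 5.75 and 5.64 in TG, against 4.26, 3.87, 4.70 and 3.93 in WT, where 1 of 4 arrays detected it. It thus met the detection filter only through TG, the group where it was higher. Setting values under the detection limit to that limit gave 2.46-fold, against 2.84-fold as measured. This call is also among those that ended when single arrays were left out. The next by p were miR-21, widely raised in inflamed tissue, at 1.01, miR-221, a regulator of cell cycle inhibitors, at 0.72, and miR-191 at 0.88, and these did not pass. The groups were separate with TG higher for 9 of the 26 and with TG lower for 2, beside 29.4% and 6.6% of all tested probe sets. The leukocyte members had 3 positive differences of 4 and a median of 0.41, with miR-342-5p and miR-223 near the detection limit. Among all 197 tested probe sets, 130 differences were positive and 67 negative.

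**Figure D4:**
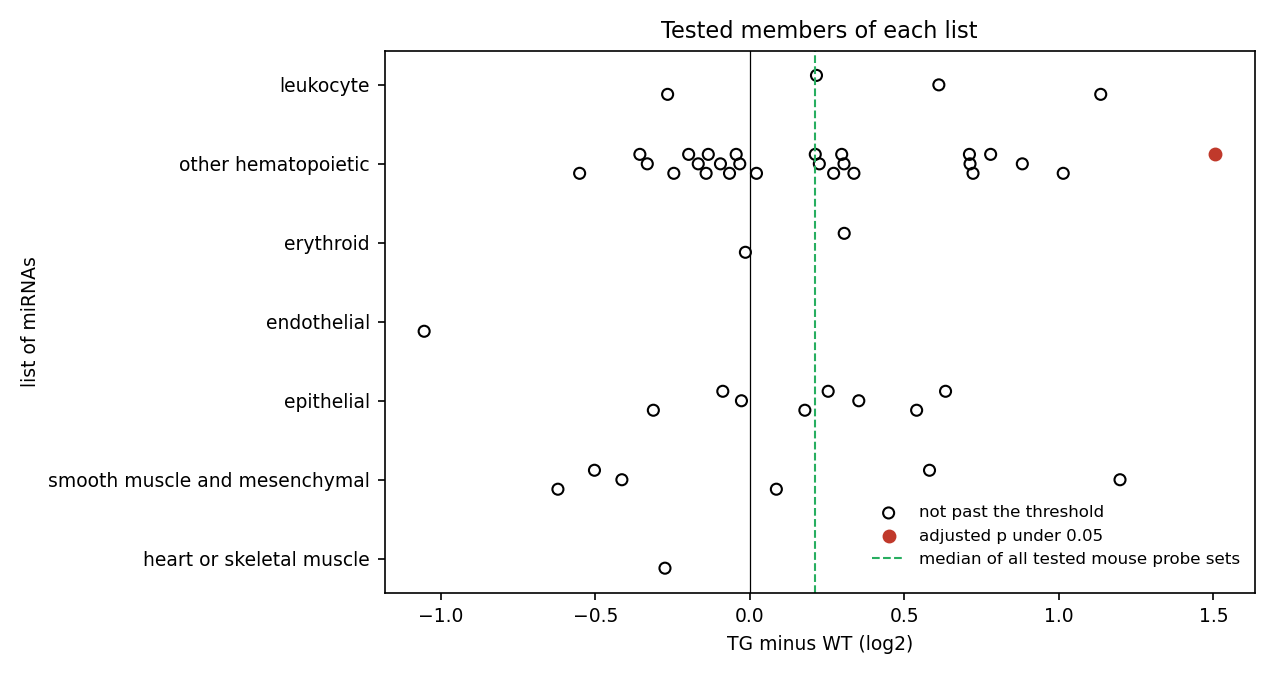
Difference between TG and WT (log2) of every tested member of each list of miRNAs, one point per probe set, with a line at 0 and a dashed line at the median of all tested mouse probe sets, 0.21. The filled point, miR-146b at 1.51, is the only one past the threshold, and the leukocyte points run from -0.27 to 1.14.

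Markers of other lung cells are given beside these values. The summed signals of the endothelial and epithelial lists did not overlap between the groups, and their part in the leukocyte values was not tested. A linear sum mostly follows its brightest member, here miR-126-3p for the endothelial and miR-200c for the epithelial list. Of the 8 epithelial markers, 2 had TG above all WT, beside 29.4% of all tested probe sets. Of 2 endothelial markers 1 was tested, miR-126-3p, at -1.05 ± 0.44 (SE), adjusted p = 0.232 by limma and under 0.05 before adjustment, and miR-126-5p was detected on 0 arrays. The summed linear signal of these 2 ran from 646 to 663 in TG and from 725 to 2349 in WT. All 8 epithelial markers were tested and 0 passed by limma, with 5 positive and 3 negative differences and a median of 0.22. The lowest p values belonged to miR-205 and miR-200c. miR-205, the 1 member at an unadjusted p under 0.05, was tested only through its detection in TG: it was detected on both TG arrays and on 0 WT arrays, and its signal was at least 1.24-fold higher in TG. miR-200c differed by 0.54, while miR-203 at -0.31, miR-200a at -0.087 and miR-200b at -0.027 were negative. Their sum ran from 1185 to 1270 in TG and from 801 to 1026 in WT. The erythroid markers, which follow blood left in the tissue, had 2 of 3 tested and 0 passing, also 0 at an unadjusted p under 0.05, with miR-486 at 0.31 and miR-451 at -0.014. Their sum ran from 237 to 302 in TG, inside the 111 to 362 of WT. All 6 smooth muscle and mesenchymal markers were tested and 0 passed, with 3 positive and 3 negative differences and a median of -0.16. Their lowest p values belonged to miR-199a-5p at 1.20 (the 1 member at an unadjusted p under 0.05, detected on 2 of 4 WT arrays) and miR-145 at 0.58, while miR-199b at -0.62, miR-143 at -0.50 and miR-199a-3p at -0.41 were negative. Their sums ran from 1682 to 1715 in TG and from 1127 to 1956 in WT. Of 7 heart or skeletal muscle markers only miR-133b was tested, detected on 2 WT and 0 TG arrays and with an adjusted p of 0.586 by limma, and 4 were detected on 0 arrays, with sums of 111 to 115 in TG and 115 to 123 in WT. The 6 leukocyte probe sets summed to 400 and 473 in TG and to 244 to 340 in WT. Their brightest member on every array was miR-342-3p, the only tested one with TG above all WT.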

How the data were processed

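MicroRNA signals were measured on 1 array for each of 6 mouse lungs. Per the labels' protocols, RNA came from a TRIzol extraction and was given biotin by Affymetrix's standard method. The values the authors deposited were read as log2: they run from 3.37 to 13.36, and the base is inferred from this range. How signals were background-corrected, summarized or normalized is not given in the sources used here, and no batch is named.

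Mouse probe sets detected on at least 2 arrays were compared between TG and WT with limma 3.58.1 under R 4.3.3, two-sided, by lmFit and eBayes with no covariate. The threshold was 0.05 after Benjamini-Hochberg adjustment. Exact permutation tests (scipy 1.17.1) used all 15 splits of the arrays, with the absolute difference of group means as the statistic. That statistic replaced scipy's own two-sided p after values had been seen. Neither form can reach 0.05 here, so no call rests on the choice. On simulated data for this comparison (197 probe sets, 40 changed, 50 simulations), the fit recovered 48.4% of log2 changes of 1 and 86% of changes of 2. The rule for the members uses names only, but the members, lists and tests were chosen with earlier results of these data known. The named miRNAs are the 6 members, the called and the 4 lowest-p members of the other hematopoietic list, the 2 lowest-p members of each marker list, and the 3 nearest profiles of each tested member. The alternatives changed the filter, the scaling, the variance model, the summary of probe sets or the arrays used. Mature sequences come from a RefSeq table of build GRCm38.p6 and play no part in the values.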

Additional observations from a re-analysis of the deposited data

Results flagged for a closer look

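Among the 6 members and the 6 differences between members, the 4 WT arrays were checked for 1 array far from the other 3. This held for 1 of these 12 sets of values, that of miR-150, where WT replicate 2 read 6.71 and the other WT arrays 6.32 to 6.39. The gap to the nearest array was 0.835 of the whole range. Chance flags about 1 in 20 such groups. Without WT replicate 2 the difference of miR-150 was 0.31, against 0.22 with all arrays.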

How the results depend on the processing

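The 6 calls over all tested probe sets became 1 without the detection filter, 2 at the 99th plant percentile, 1 with detection on 4 arrays, 0 with quantile normalization, 2 with centring, 33 with array weights, 11 with averaged and 13 with median same-name probe sets, 0 with only WT replicates 2 and 3, 0 with the number of detected mouse probe sets as a covariate, and 0 to 27 with 1 array left out. The fits with 0 calls by limma had 17 to 33 probe sets at an unadjusted p under 0.05. The covariate, the fit on WT replicates 2 and 3 and the median were chosen after seeing the data. The covariate is also tied to genotype, being higher on both TG arrays than on any WT array. miR-342-3p kept its sign in all 19 alternatives (0.12 to 1.42) and passed in 2, array weights (1.15, adjusted p of 0.0121 by limma) and without WT replicate 2. Many of these could not have turned the sign. Changing the filter or the variance trend leaves each member's difference as it is. With both TG values above all WT values, neither weighting nor leaving out arrays could make the miR-342-3p difference negative. With 1 array left out it ran from 0.92 to 1.35. miR-342-5p (0.086 to 1.07) and miR-223 (-0.70 to -0.0096) kept their signs in 17 alternatives each and never passed. miR-150 turned to -0.22 with centring and to -0.27 with the covariate. With 1 array left out, the changes between members ran from 0.55 to 1.29 for miR-342-3p minus miR-150, 0.28 to 0.77 for miR-342-3p minus miR-342-5p (0.94 with averaging), 0.46 to 1.29 for miR-342-5p minus miR-223 and -0.21 to 1.01 for miR-342-5p minus miR-150, negative without TG replicate 1. The causes were not tested. On the arrays numbered 1 and 2, the replicate block gave 12 calls and the same fit without pairing 0, with miR-342-3p at 0.93 in both. Deviations of same-numbered arrays correlated at -0.21 and 0.074, so the numbers were not taken as pairs. Where 1 TG array remained, it was assumed to vary like the WT arrays. Signals near background limit miR-142, miR-223 and miR-342-5p.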
